A study of Lathyrus oleraceus subsp. biflorus and Lathyrus oleraceus and [Pisum sativum] subsp. abyssinicum with 117 samples.

Results

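The 80 genes described here were chosen by measured levels, for transcripts that became more abundant in the pea seed coat and less abundant in the embryo as the seed developed and whose highest levels in the tissues were close. They were taken from 31857 annotated genes (identifiers beginning with Psat) in a table of 59594 features. The choice used read counts scaled to CPM (the count divided by the library total and brought to 1 common depth), as log2(CPM + 1), averaged over libraries and then over Cameor, JI92, JI1794 and PI358617. A gene was eligible if its highest stage mean was at most 9 in both tissues, the highest means of the tissues differed by less than 1, the seed coat mean was higher at stage D5 than at D2, and the embryo mean was lower at D5 than at D2. Of the 2066 genes that met these conditions, the 80 with the largest value of the smaller of the 2 changes were kept. The levels in those 4 accessions were therefore used in the choice, and their changes are given as a description, without a test. Tests were made only in libraries that the choice did not use, those of JI64, of JI261 and of a further set labelled 2017, and between domesticated and wild accessions, a difference that the averaging over accessions did not use.

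The series holds 67 seed coat and 50 embryo libraries, 117 in all. They come from 5 stages of seed development, D1 to D5, for which the labels give no ages. Cameor (a cultivar) and JI92 (a landrace) are domesticated peas (P. sativum), PI358617 is an Ethiopian pea (P. abyssinicum), and JI64, JI261 and JI1794 are wild peas (P. elatius). All plants were grown in a glasshouse without a specific treatment, and every group shares this. Tissue, accession, stage and set make 60 groups, of which 57 hold 2 libraries and 3 hold 1, and they include 11 seed coat libraries labelled 2017, from D1, D2 and D4 of JI64 and JI92. The 3 are the seed coats of Cameor and of JI92 at D5 and the 2017 seed coat of JI64 at D1. The D5 seed coat levels of Cameor and JI92, used in the choice, thus rest on 1 library each. Separate plants are not named in the labels, so the p-values measure the spread between these libraries, which may be technical.

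The seed coat is maternal tissue. It grows out of the integuments of the ovule, passes sugars and amino acids from the mother plant to the embryo, and hardens into the protective layer that in wild peas keeps water out and holds the seed dormant. The embryo first divides and takes shape, then fills its cotyledons with starch and storage proteins, and finally dries. Both tissues therefore go through a change of programme within 1 seed, although they have different origins and different fates. The files pair no identifier with a gene name and none (0) of the identifiers matched the supplied RefSeq table of another pea assembly, so no role is given to any of the 80 genes, and no sequence is shown. In whole tissue, fewer cells that express a gene and less RNA of it per cell cannot be told apart.

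Library totals ran from 56.97 M to 104.0 M counts. The labelled tissue was checked with 2 lists fixed from PI358617 at D3 and D4, with the 80 genes left out. The first was a seed coat list of 300 genes and the second an embryo list of 50 genes, the most abundant in embryos among those at least 10 times higher there. In the other 5 accessions the seed coat list held 2.15% to 10.8% of the counts of 54 seed coat libraries and at most 0.132% in 40 embryo libraries. The embryo list held 14.2% to 62.3% in those embryo libraries and 0.139% to 10.6% in those seed coat libraries. Both lists therefore followed the tissue labels in these libraries, and 3 seed coat libraries of JI64 stood apart. In JI64 the D1 replicate 2 library had 0.0395% of its counts in the seed coat list and 12.9% in the embryo list, and the D5 libraries had 0.0819% and 1.09% in the seed coat list. In the D5 replicate 1 library a single feature took 18.9% of the counts. None of these 3 was used in the choice of genes. In PI358617 the D1 embryo libraries had 0.974% and 0.958% of their counts in the embryo list, and 0.0409% in the seed coat list. The D1 embryos of Cameor had 24.2% and 23.1% in the embryo list, and those of JI64 had 22.2% and 25.3%. The D1 embryos of PI358617 were not used in the choice either.

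In the 4 accessions used for the choice, the median D5-minus-D2 difference of the 80 genes was 0.86 in seed coats and -1.12 in embryos on the log2(CPM + 1) scale. Over all 19493 annotated genes with a stage mean above 1 in either tissue the medians were -0.15 in seed coats and -0.07 in embryos, and 14.1% (2755 genes) were higher in seed coats and lower in embryos at D5. The smaller of the 2 changes, by which genes were ranked, ran from 0.595 to 2.46 with a median of 0.80. It was the seed coat change for 58 genes and the embryo change for 22. The last genes inside were Psat3g074440 (0.60) and Psat7g045400 (0.595), and the first outside were Psat6g023040 (0.593) and Psat0s471g0400 (0.592), so the edge of the set is not a break in the values.

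The choice favoured a high embryo level at D2 and a high seed coat level at D5, so peaks at these stages are largely set by it. The counts that follow describe the means over the 4 accessions, and no share among other genes was computed for them. The embryo mean was highest at D2 for 78 of the 80 genes, and 66 had made at least 50% of their D2-to-D5 change by D3. In PI358617 embryos, by contrast, 64 genes were higher at D3 than at D2 and 15 lower. The seed coat mean was highest at D5 for 71 genes, at D4 for 3, at D3 for 2 and at D1 for 4. The rise passed through every step from D2 to D5 in 40 genes and the fall through every step in 34, while 29 genes were higher again in the embryo at D5 than at D4. In 35 genes the seed coat level was higher at D1 than at D2. The choice favoured a low seed coat level at D2, so no conclusion is drawn from this count. Both directions were present in all 4 accessions for 41 genes, in 3 for 26, in 2 for 12 and in 1 for 1 gene, Psat7g095040.

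**Figure D1:**
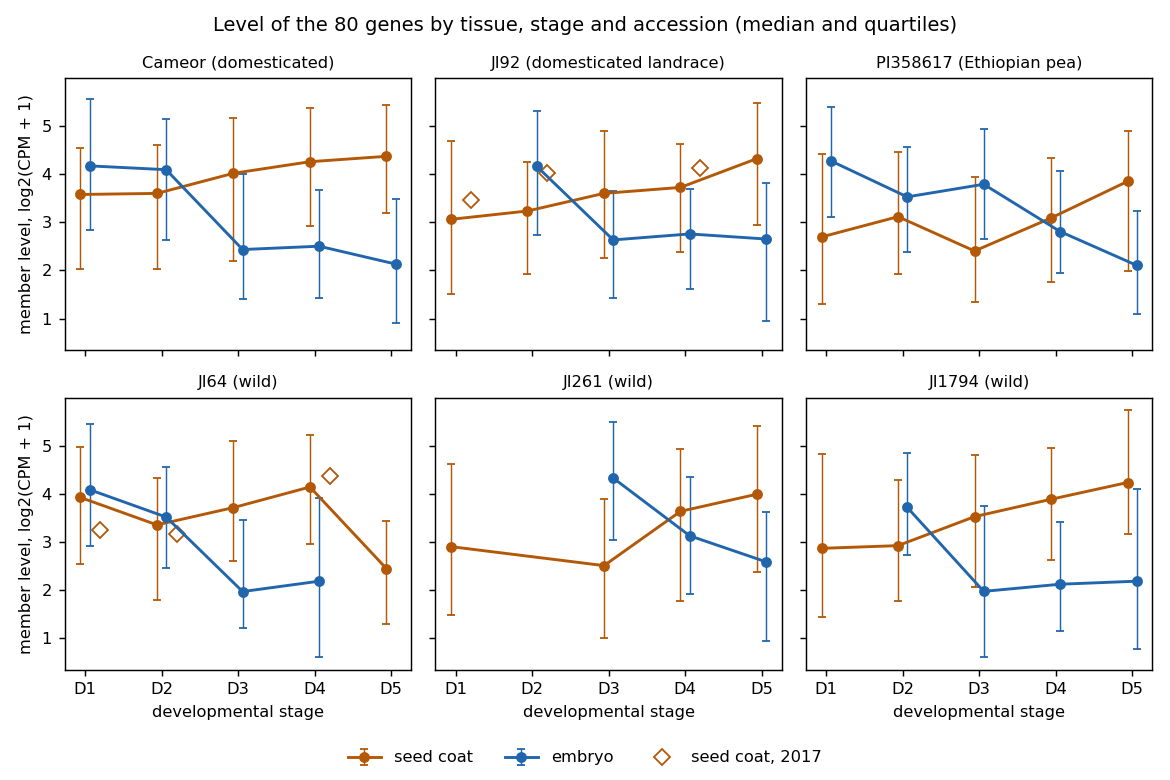
Median and quartiles of the 80 genes, as log2(CPM + 1) of the group means on the vertical axis, against developmental stage on the horizontal axis, in 1 panel for each accession. Orange points are seed coats, blue points embryos and open diamonds the 2017 seed coats. In Cameor the seed coat median climbs through 3.58, 3.60, 4.02, 4.26 and 4.38 over D1 to D5 while the embryo median runs through 4.18, 4.10, 2.44, 2.51 and 2.13, and the last seed coat point of JI64 (2.45) comes from the 2 libraries that stood apart. The first seed coat point of JI64 (3.93) includes the D1 replicate 2 library, in which the median was 4.42, against 3.04 in replicate 1.

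The medians crossed at different stages in different accessions. In Cameor, JI92 and JI1794 the embryo median was above that of the seed coat at D2 and below it from D3 onward. In PI358617 the seed coat median was 3.12, 2.41, 3.09 and 3.85 over D2 to D5, and the embryo median was 3.53, 3.79, 2.81 and 2.11, so the crossing lay between D3 and D4. Counted by gene, the seed coat mean exceeded the embryo mean at D2, D3, D4 and D5 for 24, 72, 73 and 76 genes in Cameor, for 8, 62, 60 and 75 in JI92, for 8, 66, 75 and 78 in JI1794, and for 29, 10, 47 and 65 in PI358617. JI64, which was not used in the choice, had 32, 67 and 73 genes over D2 to D4. At D1 it had 15, a count that includes the replicate 2 library that stood apart. Replicate 1 alone gave 8 genes and replicate 2 alone 59, a split by library made after the data were seen. JI261, which was not used either, had 3, 52 and 68 genes over D3 to D5, close to the counts of PI358617. By this scaling the median of annotated genes above 1 was mostly higher in seed coat as well. At D3 the median seed coat minus embryo difference was 1.26 for the chosen genes and 1.61 for annotated genes in Cameor. It was 0.96 and 1.09 in JI92, 1.01 and 0.76 in JI1794, and 1.53 and 1.16 in JI64. It was -0.99 and 0.31 in PI358617, and -1.81 and -0.41 in JI261. Whether the counts exceed those of other genes was not tested.

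**Figure D2:**
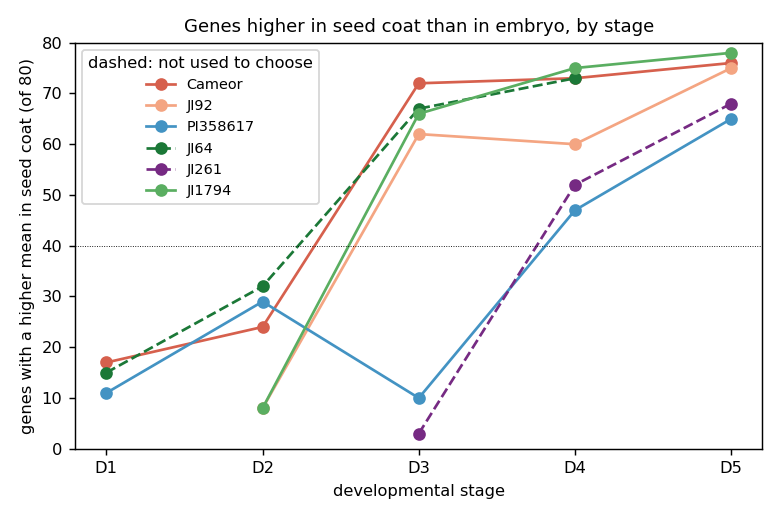
Number of the 80 genes with a higher mean log2(CPM + 1) in seed coat than in embryo (vertical axis) at each developmental stage (horizontal axis), with 1 line for each accession and dashed lines for the accessions not used in the choice. At D3 the lines lie in 2 groups, with 62 to 72 genes in Cameor, JI92, JI64 and JI1794 and 3 and 10 genes in JI261 and PI358617. The JI64 point at D1 (15 genes) includes the replicate 2 library that stood apart, and replicate 1 alone gave 8. By this scaling the median of annotated genes above 1 was also higher in seed coat at every point but JI261 at D3. At D3 its seed coat minus embryo difference ran from -0.41 in JI261 to 1.61 in Cameor.

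The level of the 80 genes was bounded by the choice, which capped the stage means and needed room for a change. Their mean level over the libraries of the 4 accessions, in FPKM (fragments scaled by library depth and gene length, a level per length), had a median of 3.54 and ran from 0.0948 to 106. The median was 0.80 over all annotated genes and 0.47 over the 2066 genes that met the conditions. As the same libraries served the choice, this is a description only. Psat1g157560 (106 FPKM), Psat5g111360 (68.5 FPKM) and Psat6g015560 (45.8 FPKM) had the highest levels. The length implied by the ratio of counts to FPKM had a median of 2806 bases, against 2527 bases for the 27215 annotated genes for which it could be computed. Over 1899 of the genes that met the conditions the median was 2199 bases. The choice used CPM, which is not scaled by length, and the difference in length was not tested. The identifiers came from all 7 chromosome series, with 9, 9, 8, 11, 15, 15 and 8 genes on series 1 to 7 and 5 on unplaced scaffolds. Series 6 held 18.75% of the 80 genes and 12.8% of annotated genes, and scaffolds held 6.25% and 13.2%. Series 5 held 18.75% and 16.1%, and series 7 held 10% and 13.8%. These shares were not tested. Only 3 pairs had identifier numbers within 400 of each other, all on series 6.

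The leading gene was Psat6g015560. Its transcript was abundant in the young embryo and nearly absent from the late one, and in the seed coat it was low first and higher later. In Cameor seed coats it had 9.55 and 10.1 CPM at D1, 25.4 and 25.2 CPM at D2, 186 and 193 CPM at D3, 185 and 186 CPM at D4, 136 CPM at D5, and in Cameor embryos 80.3 and 90.5 CPM at D1, 80.01 and 60.2 CPM at D2, 15.7 and 16.4 CPM at D3, 5.38 and 3.93 CPM at D4, 0.726 and 0.732 CPM at D5. In JI92 seed coats it had 0.77 and 1.52 CPM at D1, 10.6 and 12 CPM at D2, 114 and 139 CPM at D3, 109.6 and 114 CPM at D4, 277 CPM at D5, and in JI92 embryos 94.5 and 79.3 CPM at D2, 19.9 and 18.8 CPM at D3, 4.6 and 3.75 CPM at D4, 0 and 0.0919 CPM at D5. The libraries of a pair lay close together, and embryos at D4 and D5 lay below every seed coat library from D2 onward in these 2 accessions.

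The course of Psat6g015560 was shifted in PI358617 and smaller in the JI1794 seed coat. PI358617 seed coats had 24 and 26.7 CPM at D1, 80.3 and 78.7 CPM at D2, 74.1 and 69.1 CPM at D3, 33.3 and 37.2 CPM at D4, 375 and 349.7 CPM at D5, and PI358617 embryos 80.7 and 73.6 CPM at D1, 47.9 and 50.7 CPM at D2, 132 and 127 CPM at D3, 37.3 and 38.5 CPM at D4, 2.37 and 2.62 CPM at D5, so that the embryo still held its highest level at D3. JI1794 seed coats had 0.403 and 1.72 CPM at D1, 5.95 and 6.08 CPM at D2, 20.3 and 15.6 CPM at D3, 23 and 14.3 CPM at D4, 10.9 and 11.6 CPM at D5, and JI1794 embryos 53.6 and 60.1 CPM at D2, 0.0625 and 0 CPM at D3, 1.99 and 2.24 CPM at D4, 0.065 and 0.133 CPM at D5. JI1794 embryos were thus near 0 at D3 and D5. The embryo list held 43.3% and 42.7% of the counts of these embryos at D2 and 28.0% and 28.2% at D3. It held 50.7% and 51.3% at D4 and 14.4% and 14.2% at D5. The part of these shifts in the course of the gene was not tested.

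**Figure D3:**
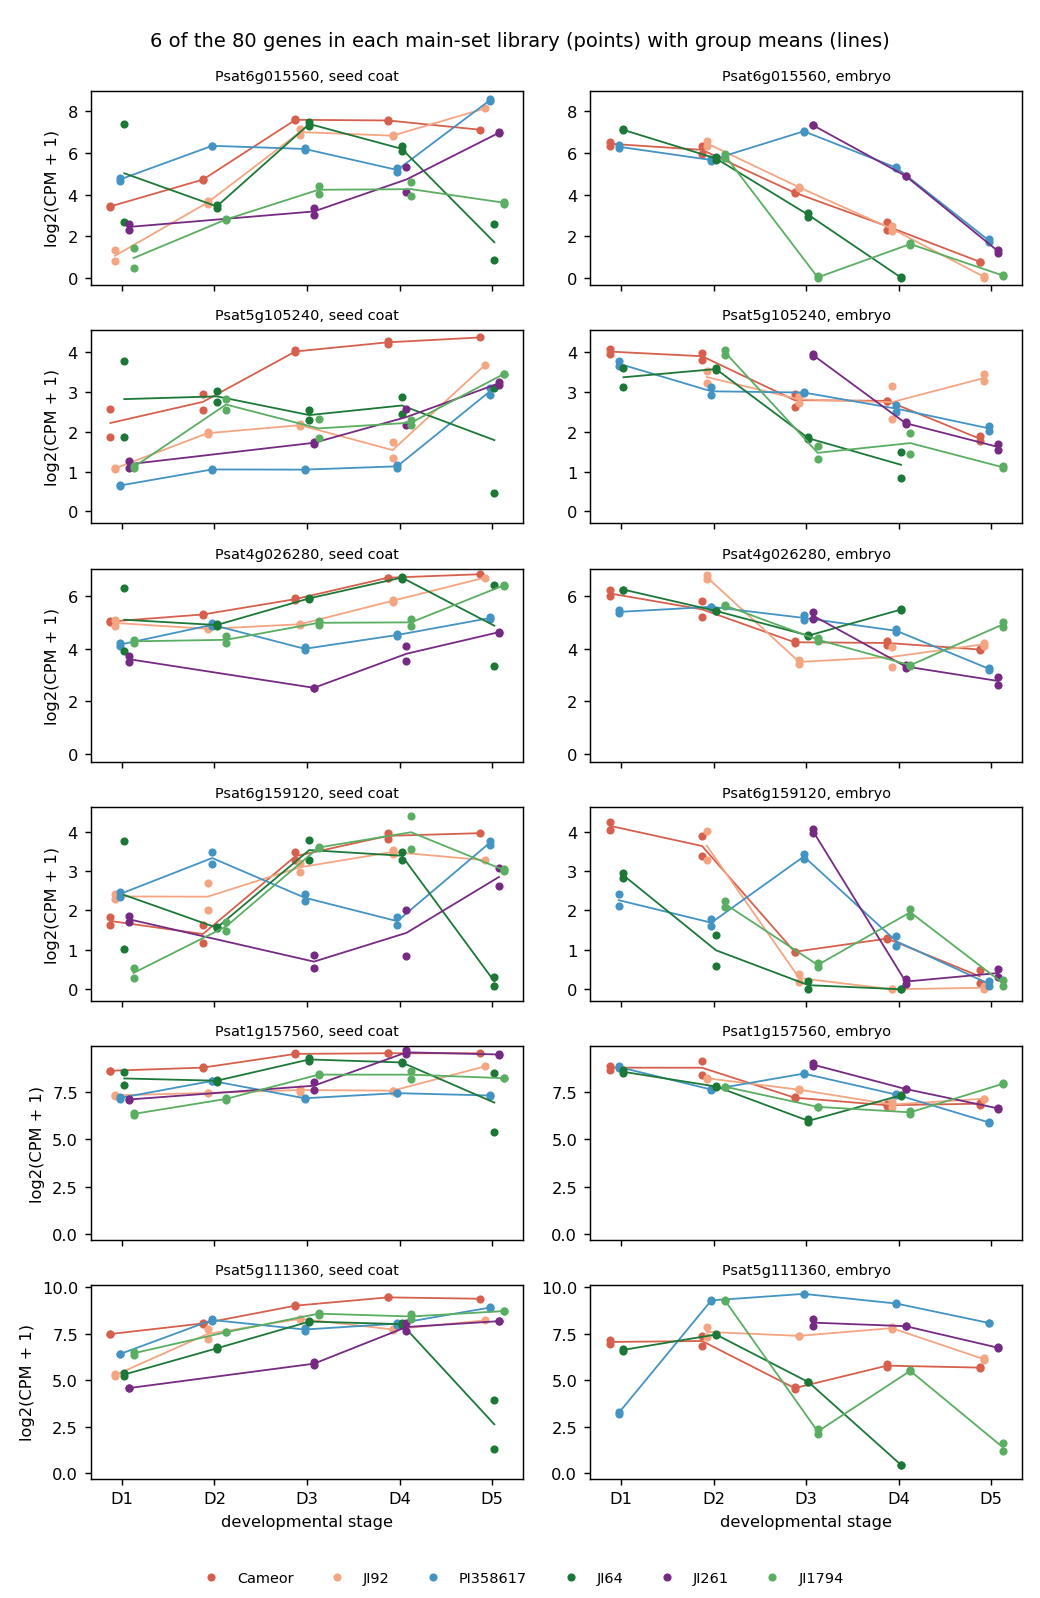
Level of 6 of the 80 genes in every library of the main set, as log2(CPM + 1) on the vertical axis against developmental stage on the horizontal axis, with seed coats on the left and embryos on the right. Points are libraries, lines join group means and colours are accessions. Psat6g015560 falls below 1 CPM in Cameor and JI92 embryos at D5 while it stands above 130 CPM in their seed coats, and the libraries that stood apart are 1 of the JI64 seed coat points at D1 and both at D5.

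The other leading genes differed in how widely they shared this course. Psat5g105240 was highest late in the Cameor seed coat, with 4.87 and 6.65 CPM at D2, 15.4 and 14.8 CPM at D3, 17.3 and 18.4 CPM at D4, 19.5 CPM at D5, while the Cameor embryo had 14.7 and 13 CPM at D2, 5.15 and 6.74 CPM at D3, 5.78 and 5.86 CPM at D4, 2.4 and 2.68 CPM at D5. In PI358617 seed coats it stayed at 0.545 to 1.25 CPM from D1 to D4 and reached 7.53 and 6.55 CPM at D5, so the step there lay between the last stages. Psat4g026280 had both directions in all 4 accessions, with 26.2 and 25.5 CPM at D2, 29.7 and 28.9 CPM at D3, 56.5 and 53.6 CPM at D4, 102 CPM at D5 in JI92 seed coats and 98.7 and 108 CPM at D2, 9.63 and 11 CPM at D3, 8.87 and 15.8 CPM at D4, 17.6 and 16.3 CPM at D5 in JI92 embryos. Psat6g159120 was nearly absent from late JI92 embryos, with 8.64 and 15.2 CPM at D2, 0.316 and 0.128 CPM at D3, 0 and 0 CPM at D4, 0.0564 and 0 CPM at D5, against 3 and 5.49 CPM at D2, 6.92 and 8.22 CPM at D3, 9.76 and 10.6 CPM at D4, 8.68 CPM at D5 in JI92 seed coats.

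Psat2g059040, with 53.8 and 54.6 CPM at D2, 39.2 and 33.4 CPM at D3, 48.3 and 47.8 CPM at D4, 100.1 and 99.7 CPM at D5 in PI358617 seed coats and 65 and 70.8 CPM at D2, 76.4 and 73.9 CPM at D3, 58.7 and 56.2 CPM at D4, 24.8 and 23.4 CPM at D5 in PI358617 embryos, Psat6g003200 and Psat4g197600 also had both directions in all 4 accessions. Psat6g003200 was scarce, and its highest seed coat level in the 4 accessions was 11.6 CPM in Cameor at D5. Psat0s2818g0080 had both directions in 3 accessions, and its seed coat course was not a plain rise. JI1794 seed coats had 31.1 and 34.3 CPM at D1, 9.4 and 11.1 CPM at D2, 17.8 and 15.4 CPM at D3, 14.1 and 19.6 CPM at D4, 106 and 95.5 CPM at D5 of it, high at both ends.

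For 2 of the 10 leading genes the averages over accessions rest on few of them. Psat4g113000 had both directions in 2 accessions. Its transcript was counted at 0 in both embryo libraries of Cameor and of JI1794 at D4 and at D5. Psat7g095040 had both directions only in JI1794, whose seed coats had 78.1 and 78.4 CPM at D5 and 5.08 and 5.15 CPM at D2, and whose embryos had 9.12 and 11.4 CPM at D5 and 24 and 21.4 CPM at D2. It also had the widest spread between accessions of the 80 genes in the seed coat at D3 and D4. JI261 seed coats had 200.4 and 204 CPM at D3 and 173 and 180.3 CPM at D4, while PI358617 seed coats had 2.09 and 1.99 CPM at D3 and 4.85 and 3.62 CPM at D4, a range of 5.58 on the log2(CPM + 1) scale.

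**Figure D4:**
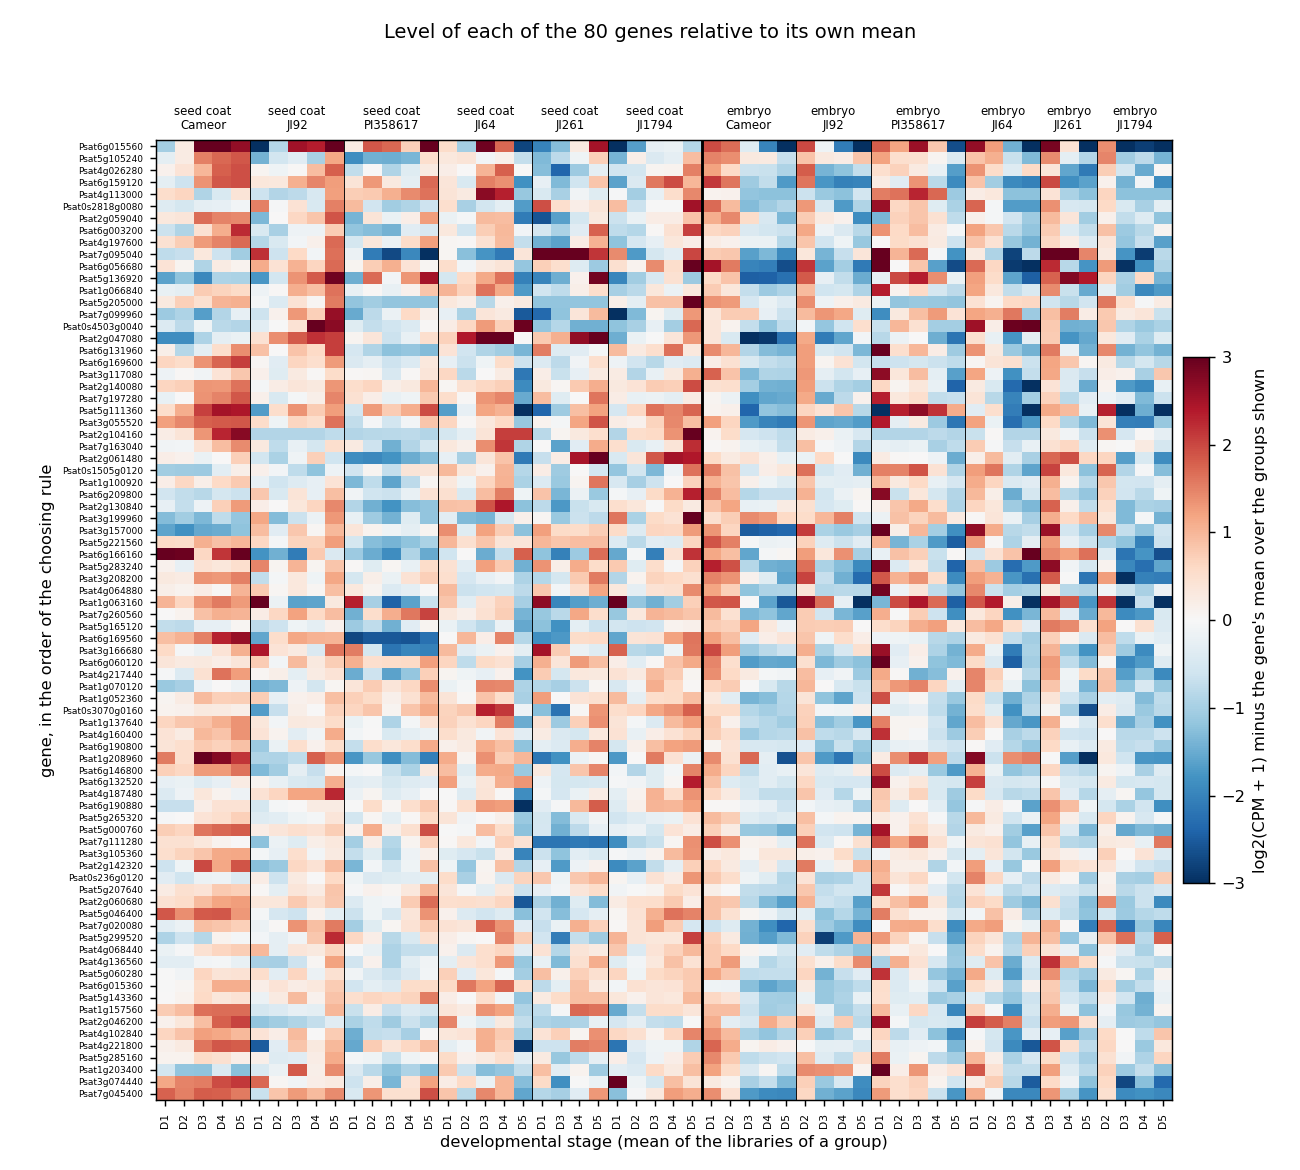
Each of the 80 genes (rows, in the order of the choosing rule) in every main-set group (columns, by tissue, accession and stage), as the group mean of log2(CPM + 1) minus the gene's mean over the groups shown. Red is above and blue below the gene's own mean, with the scale ended at 3 and -3. Late seed coats and early embryos are mostly red, late embryos mostly blue, and a few rows such as Psat7g095040 follow the accession rather than the stage. The JI64 seed coat columns at D1 and D5 include the libraries that stood apart.

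JI64 provided the first test of the pattern in libraries that had not been used in the choice. Between D2 and D4 most of the genes rose in its seed coat and fell in its embryo. All 80 genes passed the filter on low counts and were tested with edgeR's quasi-likelihood test on the whole table, with Benjamini-Hochberg adjustment over all features and a threshold of 0.05. In the seed coat 57 genes were higher at D4 and 2 lower, where 18.6% of all features were higher, and the median log2 fold change was 0.95 for the 80 genes and -0.08 for all features. In the embryo 56 genes were lower at D4 and 6 higher, where 28.3% of all features were lower, with medians of -1.60 and 0.00. Both changes passed the test in 45 genes, and in 3.59% of the 29611 features tested.

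The change itself differed between the tissues of JI64. The D2-to-D4 change was higher in seed coat than in embryo for 66 genes and lower for 4, where 21.5% of all features were higher and 18.6% lower, and the median difference was 2.53 for the 80 genes against -0.04 for all features. At D4 the seed coat exceeded the embryo in 56 genes and was below it in 8 (34.7% of all features were higher, medians 1.31 and 0.17). At D2 the seed coat was below the embryo in 54 genes and above it in 3 (20.4% of all features were lower, medians -1.13 and 0.22). The count at D2 depends on the scaling, since with library totals in place of TMM factors 31 genes were lower and the medians were -0.29 for the 80 genes and 1.06 for all features. As lower in the seed coat at D2 and higher at D4, 38 genes passed both tests, and 3.7% of the features tested did. The embryo list held 24.6% and 25.04% of the counts of JI64 embryos at D4 against 47.8% and 48.5% at D2, and the seed coat list 6.52% and 6.18% in JI64 seed coats at D4 against 9.67% and 9.76% at D2. The part of these shifts in the result was not tested.

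The difference was clearest in 5 genes. Psat5g111360 had 265 and 251 CPM in JI64 seed coats at D4 against 108 and 101 CPM at D2, and 0.372 and 0.36 CPM in JI64 embryos at D4 against 173 and 177 CPM at D2. The log2 fold changes were 1.45 in seed coats and -8.84 in embryos, and the difference between them was 10.29 ± 0.16 (SE), adjusted p = 5.73e-11. Psat6g015560 had 78.2 and 65.8 CPM in JI64 seed coats at D4 against 10.5 and 9.2 CPM at D2, and 0.0486 and 0 CPM in JI64 embryos at D4 against 54 and 50.1 CPM at D2. Its embryo level at D4 rests on 3 counts over both libraries, so that the ratio of D2 to D4 was 2459 with an exact 95% interval from 841 to 11928 that covers counting error only, and the difference of the changes had an adjusted p of 1.07e-09. In both genes the groups were far apart, with no overlap between the stages in either tissue.

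Psat1g063160 had 37.5 and 43.1 CPM in JI64 seed coats at D4 against 18.7 and 19.7 CPM at D2, and 0.551 and 1.03 CPM in JI64 embryos at D4 against 137 and 125 CPM at D2. The difference of its changes was 8.49 ± 0.25 (SE), adjusted p = 1.35e-09. Psat3g157000 had 220.1 and 197 CPM in JI64 seed coats at D4 against 97.3 and 93.1 CPM at D2, and 71.6 and 75 CPM in JI64 embryos at D4 against 274 and 256 CPM at D2. Psat3g157000 thus stayed well expressed in both tissues, and the difference of its changes was 3.08 ± 0.15 (SE), adjusted p = 4.32e-08. Psat6g190880 had 42.4 and 47.3 CPM in JI64 seed coats at D4 against 26 and 26.7 CPM at D2, and 5.33 and 5.31 CPM in JI64 embryos at D4 against 21.6 and 21.1 CPM at D2. The difference was 2.86 ± 0.15 (SE), adjusted p = 6e-08, and all 3 genes rose in the seed coat and fell in the embryo by the test of each tissue.

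Several genes could not be detected in the late JI64 embryo. Psat6g159120, Psat4g113000 and Psat7g045400 had 0 counts in both embryo libraries at D4, which allows up to 0.0211 CPM if a count of 0 is taken to allow 3 counts over both libraries. They were therefore at least 52.3-fold, 92.502-fold and 121-fold lower there than at D2. In JI64 seed coats Psat6g159120 had 8.76 and 10.2 CPM at D4 against 1.99 and 1.92 CPM at D2 (log2 fold change 2.42 ± 0.61 (SE), adjusted p = 0.0111). Psat4g113000 had 12.4 and 9.31 CPM at D4 against 1.6 and 2.1 CPM at D2 (log2 fold change 2.71 ± 0.34 (SE), adjusted p = 0.000265). Psat7g045400 had 7.07 and 6.11 CPM at D4 against 1.08 and 1.19 CPM at D2 (log2 fold change 2.69 ± 0.30 (SE), adjusted p = 0.000116). All 3 rose, and the call of Psat6g159120 was lost when either D2 library was left out (adjusted p 0.0672 and 0.0769). Setting the 5 of the 80 genes with a JI64 group at 0 to that limit left the medians above as given.

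JI261 provided the second test, between D3 and D5, the first and last stages at which both of its tissues were analysed here. In its seed coat 41 genes were higher at D5 and 6 lower, where 17.5% of all features were higher, and the medians were 1.07 for the 80 genes (1.06 with a group at 0 set to the limit of 3 counts) and 0.00 for all features. In its embryo 52 genes were lower at D5 and 2 higher, where 20.9% of all features were lower, with medians of -1.25 and 0.00. The change was higher in seed coat than in embryo for 58 genes and lower for 0, where 15.8% of all features were higher and 13.7% lower, with a median difference of 2.29 for the 80 genes and 0.15 for all features. By an unadjusted p under 0.05 the difference passed for 63 genes in either direction, and for 10612 of 27397 features. With library totals in place of TMM factors 74 passed as higher, and the median of all features moved to 1.58 against 3.79 for the 80 genes. The fitted changes in JI261 therefore differ from ratios of the CPM values.

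JI261 embryos exceeded its seed coats at D3, and the seed coats led at D5 by less. At D3 the seed coat was below the embryo in 60 genes and above it in 2 (28.6% of all features were lower, medians -1.97 and -0.29). At D5 the seed coat was above the embryo in 38 genes and below it in 17 (26.1% of all features were higher, medians 0.56 and -0.14). The D5 count was 59 and 60 when limma was run on log2(FPKM + 1) and log2(FPKM + 0.1), and 57 with library totals, where the median of all features was 0.78 and that of the 80 genes 1.73. As lower at D3 and higher at D5, 25 genes passed both tests, and 2.41% of the 27397 features tested did. The embryo list held 51.5% and 51.4% of the counts of JI261 embryos at D5 against 25.8% and 27.6% at D3, and 7.07% and 6.87% of the counts of JI261 seed coats at D5 against 0.469% and 0.398% at D3. The seed coat list held 6.37% and 6.52% of the counts of JI261 seed coats at D5 against 10.8% and 9.95% at D3. The part of these shifts in the result was not tested.

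The 5 genes with the smallest p in JI261 included Psat6g015560 again. Psat6g015560 had 122 and 124 CPM in JI261 seed coats at D5 against 9.24 and 7.19 CPM at D3, and 1.59 and 1.32 CPM in JI261 embryos at D5 against 157 and 158 CPM at D3. The difference of its changes was 9.17 ± 0.49 (SE), adjusted p = 5.96e-07. Psat0s3070g0160 had 111 and 99.7 CPM in JI261 seed coats at D5 against 9.11 and 7.17 CPM at D3, and 5.74 and 5.85 CPM in JI261 embryos at D5 against 47 and 41.1 CPM at D3. The difference was 5.12 ± 0.20 (SE), adjusted p = 7.81e-08. Psat4g221800 had 57.1 and 53.5 CPM in JI261 seed coats at D5 against 14.1 and 10.5 CPM at D3, and 10.9 and 10.7 CPM in JI261 embryos at D5 against 71.5 and 76.4 CPM at D3. The difference was 3.44 ± 0.19 (SE), adjusted p = 6.31e-07. In these 3 genes the stages did not overlap in either tissue.

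Psat2g047080 had 348 and 303 CPM in JI261 seed coats at D5 against 81.8 and 70.0 CPM at D3, and 10.6 and 12.8 CPM in JI261 embryos at D5 against 60.5 and 62.1 CPM at D3. Psat2g047080 was above its embryo level in the seed coat at both stages, and the difference of its changes was 2.98 ± 0.17 (SE), adjusted p = 1.09e-06. Psat3g208200 had 32.7 and 29.6 CPM in JI261 seed coats at D5 against 6.09 and 7.19 CPM at D3, and 1.08 and 1.83 CPM in JI261 embryos at D5 against 35.5 and 40.9 CPM at D3. The difference was 5.42 ± 0.35 (SE), adjusted p = 2.25e-06. In JI64 embryos Psat2g047080 had 28.6 and 30.1 CPM at D4 against 30.2 and 30.9 CPM at D2 (0.00 ± 0.17 (SE), adjusted p = 1), and JI64 seed coats had 846 and 595 CPM at D4 against 199 and 188 CPM at D2 (2.05 ± 0.18 (SE), adjusted p = 5.61e-06).

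**Figure D5:**
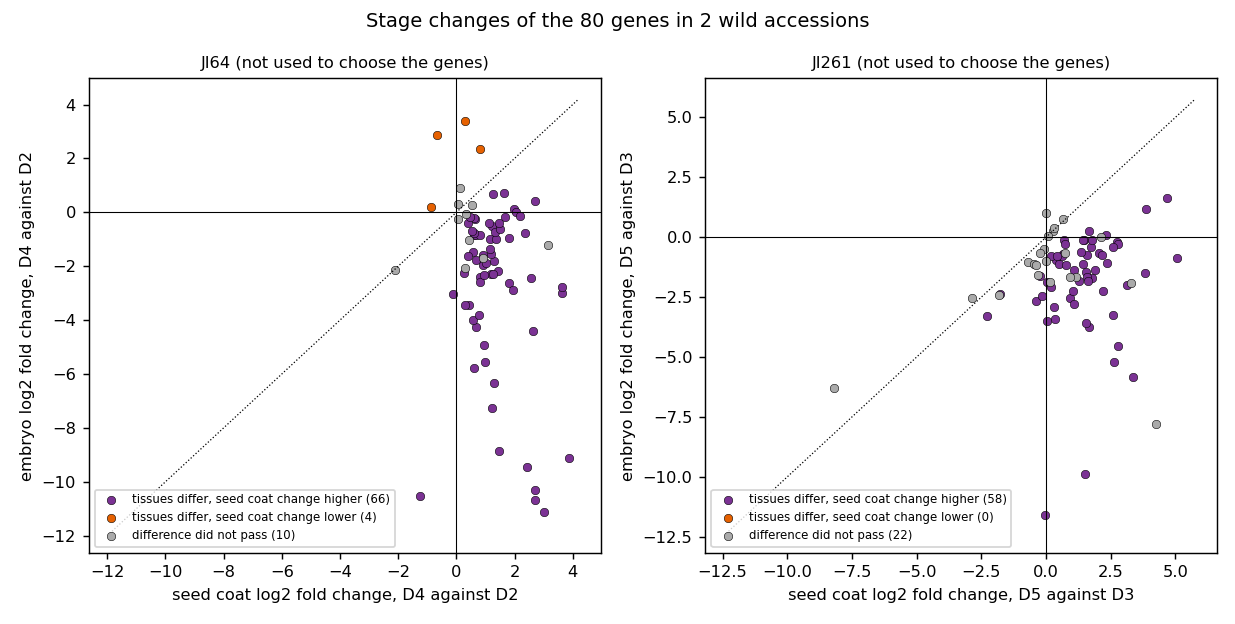
Log2 fold change of each of the 80 genes between stages, in seed coats (horizontal axis) and embryos (vertical axis), for D4 against D2 in JI64 on the left and D5 against D3 in JI261 on the right. Points on the dotted line changed equally in both tissues, purple points passed the test of the difference in the direction of the choice (66 in JI64, 58 in JI261), orange points passed in the opposite direction (4 in JI64) and grey points did not pass. Fitted values beyond about -9 belong to genes with 0 to 3 counts in a group and are no estimate of size.

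The difference between tissues passed the test in the direction of the choice in both accessions for 54 genes, in JI64 alone for 12, in JI261 alone for 4 and in neither for 10. Of the 23070 features tested in both accessions, 12.2% passed in both, 14.1% in JI64 alone, 6.0% in JI261 alone and 67.7% in neither. All 4 single changes, a rise in each seed coat and a fall in each embryo, passed for 19 genes, and for 1.2% of these features. Among the named genes these were Psat6g015560, Psat6g159120, Psat2g059040, Psat6g003200, Psat5g111360, Psat3g208200, Psat0s3070g0160, Psat6g190880, Psat1g157560, Psat4g221800, Psat3g074440 and Psat7g045400. The stages set against each other were not the same in JI64 and JI261, and the difference between the accessions was not tested.

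Psat1g157560, the gene with the highest level per length, was among these 19 genes. Psat1g157560 had 533 and 513 CPM in JI64 seed coats at D4 against 280.3 and 257 CPM at D2, and 153 and 161 CPM in JI64 embryos at D4 against 222 and 212 CPM at D2. Psat1g157560 had 698 and 704 CPM in JI261 seed coats at D5 against 258 and 194 CPM at D3, and 96.5 and 97.9 CPM in JI261 embryos at D5 against 506 and 460.5 CPM at D3. The log2 fold changes in JI64 were 1.11 ± 0.10 in seed coats and -0.41 ± 0.10 in embryos (SE), and in JI261 1.09 ± 0.13 and -1.36 ± 0.13, with adjusted p of at most 0.00542 in edgeR. Among the 4 accessions of the choice it had both directions in 2.

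The embryo level of Psat5g111360 varied more between accessions at D3 and D4 than that of any other of the 80 genes, over 6.71 on the log2(CPM + 1) scale. Its embryo level was 807 and 793 CPM at D3 and 565 and 550.2 CPM at D4 in PI358617, but 28.7 and 29 CPM at D3 and 0.372 and 0.36 CPM at D4 in JI64. JI1794 embryos had 3.28 and 4.26 CPM at D3, against 603 and 632 CPM at D2, and stood at 45.2 and 43.8 CPM at D4. The embryo list was likewise lower in these embryos at D3 than at D2 and D4, as given above. In PI358617 the D1 embryo was low as well (8.13 and 8.86 CPM), and the level at D2 was 613 and 642 CPM. The embryo list as a whole was also low in these D1 libraries, as given above. Its fall in the JI261 embryo was small, with 109 and 104 CPM at D5 against 242 and 308 CPM at D3 (-0.42 ± 0.14 (SE), adjusted p = 0.0428), and the call was lost without D3 replicate 2 (adjusted p 0.172), without D5 replicate 1 (0.088) and without D5 replicate 2 (0.109). With library totals in place of TMM factors the log2 fold change was -1.37, nearer the ratio of the CPM values.

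In JI64 the tissues differed against the direction of the choice in 4 genes, and in each the embryo level at D4 exceeded that of the seed coat. Psat6g166160 had 3.98 and 5.66 CPM in JI64 seed coats at D4 against 8.64 and 8.29 CPM at D2, and 84.2 and 80.03 CPM in JI64 embryos at D4 against 12.8 and 10.7 CPM at D2. The difference of the changes was -3.53 ± 0.20 (SE), adjusted p = 1.49e-07. In JI261 the same gene had the opposite difference. Its seed coat had 30.9 and 27.1 CPM at D5 against 1.22 and 1.44 CPM at D3 and the difference of the changes was 2.69 ± 0.39 (SE), adjusted p = 0.000516. Psat0s4503g0040 had 3.09 and 3.98 CPM in JI64 seed coats at D4 against 3.3 and 3.11 CPM at D2, and 22.2 and 20.8 CPM in JI64 embryos at D4 against 2.34 and 1.91 CPM at D2. The difference was -3.11 ± 0.22 (SE), adjusted p = 8.41e-07. In JI261 Psat0s4503g0040 had 0 counts in both seed coat libraries at D5 and 0.632 and 0.411 CPM at D3. Its JI261 embryos fell, as in the choice, from 461 counts over both libraries at D3 to 3 at D5. Both tissues were thus at or near 0 at D5, and no direction is drawn for the difference in JI261.

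Psat1g208960 had 25.9 and 29.4 CPM in JI64 seed coats at D4 against 18.9 and 15.5 CPM at D2, and 47 and 50.3 CPM in JI64 embryos at D4 against 9.63 and 10.4 CPM at D2. Psat1g208960 rose in both tissues, more in the embryo, and the difference was -1.51 ± 0.17 (SE), adjusted p = 2.62e-05. JI64 embryos had already held 101 and 131 CPM of it at D1. In JI261 the same gene moved as chosen, with 16 and 18 CPM in seed coats at D5 against 5.03 and 2.97 CPM at D3, and 0.752 and 0.62 CPM in embryos at D5 against 14.9 and 17 CPM at D3 (difference 5.13 ± 0.52 (SE), adjusted p = 4.76e-05). The remaining gene was Psat7g095040, with 3.85 and 3.27 CPM in JI64 seed coats at D4 against 7.6 and 7 CPM at D2, and 10.8 and 10.04 CPM in JI64 embryos at D4 against 8.78 and 10.02 CPM at D2 (difference -1.09 ± 0.27 (SE), adjusted p = 0.00692). These 4 genes had both directions in 3, 2, 2 and 1 of the accessions used for the choice.

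The 2017 seed coat libraries tested the rise again. In JI64 seed coats of 2017, 70 of the 80 genes were higher at D4 than at D2 and 1 was lower, where 22.2% of all features were higher, with medians of 1.56 and 0.00. In JI92 seed coats of 2017, 46 were higher and 12 lower, where 23.9% of all features were higher and 24.1% lower, with medians of 0.75 and 0.00. The rise passed in both JI64 sets for 54 genes, and in these and the JI92 set for 30, where 16.1% and 9.18% of the 27612 features tested in all 3 passed. A test of the difference between the changes, chosen after both had been seen, found the change lower in JI92 than in JI64 for 44 genes and higher for 11, where 20.2% of all features were lower and 18% higher, with medians of -0.90 and -0.05. The embryo list held 8.95% and 8.70% of the counts of JI92 at D4 against 4.48% and 4.61% at D2, and the seed coat list 2.15% and 2.23% at D4 against 6.83% and 6.72% at D2. In the 2017 JI64 seed coats the embryo list held 2.06% and 2.13% at D4 against 1.66% and 1.69% at D2, and the seed coat list 5.52% and 5.56% at D4 against 10.32% and 9.997% at D2. The part of these shifts was not tested.

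Psat6g015560 gave the plainest case. The 2017 seed coats of JI92 had 6.98 and 7.01 CPM at D4 against 89.3 and 109 CPM at D2 (log2 fold change -3.43 ± 0.13 (SE), adjusted p = 1.7e-07), while those of JI64 had 54.8 and 54.3 CPM at D4 against 10.3 and 11.2 CPM at D2 (2.58 ± 0.12 (SE), adjusted p = 6.78e-07). The main-set seed coats of JI92, used in the choice, had 109.6 and 114 CPM at D4 and 10.6 and 12 CPM at D2. Psat6g159120, Psat5g111360 and Psat6g190880 were also lower at D4 than at D2 in the 2017 JI92 seed coats, with log2 fold changes of -1.42, -0.95 and -1.44. Psat1g063160 was higher at D4. It had 155 and 147 CPM at D4 against 4.67 and 6.05 CPM at D2 in JI92 of 2017 (5.21 ± 0.14 (SE), adjusted p = 3.28e-08), where the main-set JI92 seed coats had 7.14 and 7.73 CPM at D4 and 21.1 and 21.7 CPM at D2. The difference between the JI92 sets was not tested.

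Other leading genes rose in both 2017 accessions. Psat5g105240 had 25.7 and 27 CPM at D4 against 3.06 and 2.57 CPM at D2 in JI92 (3.62 ± 0.13 (SE), adjusted p = 1.78e-07), and 28.3 and 27.2 CPM at D4 against 3.97 and 4 CPM at D2 in JI64 (3.04 ± 0.13 (SE), adjusted p = 3.96e-07). Psat4g026280 had 133 and 143 CPM at D4 against 65.2 and 62.3 CPM at D2 in JI92, and 299.8 and 322 CPM at D4 against 26.8 and 26.4 CPM at D2 in JI64, a larger rise in JI64 (difference -2.27 ± 0.12 (SE), adjusted p = 2.72e-06). In the main-set JI64 seed coats Psat5g105240 did not pass, with 4.46 and 6.25 CPM at D4 against 5.67 and 7.15 CPM at D2 (-0.12 ± 0.31 (SE), adjusted p = 0.814).

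Between D1 and D2 more of the genes fell than rose in the JI64 embryo. There 13 of the 80 genes were higher at D2 than at D1 and 32 lower, where 19.5% of all features were higher, and 4397 of 25730 features lower, with medians of -0.38 and 0.00. Psat5g111360 was among the genes that rose, with 173 and 177 CPM at D2 against 102 and 94.6 CPM at D1 (1.18 ± 0.08 (SE), adjusted p = 5.73e-06), and Psat1g208960 among those that fell, with 9.63 and 10.4 CPM at D2 against 101 and 131 CPM at D1 (-3.18 ± 0.14 (SE), adjusted p = 3.32e-07). The count of higher genes was 7 without replicate 2 at D2 and 8 with library totals.

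The JI64 seed coat at D5, the stage of the choice, is known only from the 2 libraries that stood apart. There 32 genes were higher than at D2 and 13 lower, where 21.5% of all features were higher and 29.3% lower, with medians of 0.51 and -0.34. This count fell to 4 with library totals in place of TMM factors, where the median of the 80 genes was -0.61 and that of all features -1.50, so no direction is drawn from it. Psat6g015560 had 0.817 and 4.97 CPM in these libraries against 10.5 and 9.2 CPM at D2. Leaving out 1 of the D2 and D5 libraries at a time gave 22 to 39 genes.

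No gene of the 80 passed the test between domesticated and wild peas. Counts were summed over D3 and D4 within each accession, and Cameor and JI92 were set against JI64, JI261 and JI1794. In edgeR 0 of the 80 genes passed in seed coats and 0 in embryos, where 0% of all features passed in either tissue, and an unadjusted p under 0.05 was reached by 3 of the 80 genes (1120 of 30249 features) and by 2 (1274 of 28091 features). The medians were 0.04 for the 80 genes and 0.02 for all features in the seed coat, and -0.14 and -0.15 in the embryo. By DESeq2 0 of the 80 genes passed in seed coats (603 features) and 1 in embryos (923 features). With single libraries as replicates, which ignores that libraries share an accession, 10 of the 80 genes passed in seed coats (3543 of 23265 features) and 5 in embryos (2289 of 21434 features). The log2 fold changes of the 80 genes ranged from -3.36 to 2.30 in the seed coat, between 2 domesticated and 3 wild accessions.

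The levels of the genes differed between the accessions at these stages. The highest accession mean of a gene over D3 and D4 exceeded the lowest by a median of 2.09 on the log2(CPM + 1) scale in seed coats and 1.86 in embryos. The seed coat mean was highest in Cameor for 35 genes and in JI64 for 23, and lowest in JI261 for 30 and in PI358617 for 29. In the embryo the highest mean was in JI261 for 49 genes and in PI358617 for 20, and the lowest was in JI64 for 34 and in JI1794 for 27. JI261 and PI358617 were the accessions in which the tissues crossed after D3. No such range or ranking of accessions was computed over all genes. Whether either is particular to these genes was therefore not tested.

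Neighbouring genes among the 80 were alike to different degrees. Psat6g190800 and Psat6g190880, 80 identifier numbers apart with 1 annotated identifier between them, had a Pearson correlation of 0.74 over the means of the 60 groups. For Psat6g169560 and Psat6g169600, with no identifier between them, it was 0.56, and for Psat6g015360 and Psat6g015560 it was 0.42. These values describe points that share libraries and accessions. All 80 genes were chosen for a like course, which favours high correlations. None was computed for pairs that are not neighbours, so whether neighbours are more alike was not tested. Psat6g190800 had 30.4 and 25 CPM in JI64 seed coats at D4 against 19.1 and 15.8 CPM at D2, and 5.51 and 6.19 CPM in JI64 embryos at D4 against 11.4 and 10.6 CPM at D2. The difference of its changes was 1.67 ± 0.26 (SE), adjusted p = 0.0003, against 2.86 for its neighbour. In PI358617 seed coats Psat6g169560 stayed at 0 to 0.403 CPM in all 10 libraries, while Cameor seed coats reached 39.2 CPM at D5. Psat6g169600 was scarce throughout, with at most 6.55 CPM, in the Cameor seed coat at D5. Psat6g015360 passed the test of the difference in JI261 (2.27 ± 0.49 (SE), adjusted p = 0.00537) and not in JI64 (0.39 ± 0.24 (SE), adjusted p = 0.235).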

How the data were processed

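Messenger RNA of pea seed coats and embryos was enriched with oligo(dT) beads and sequenced, per the labels' protocols. The series' design text gives Cameor v1.0 as the reference genome, and HISAT2 (2.1.0) with StringTie (2.1.0) are listed in the submitters' processing notes. The counting rule, strand setting and treatment of near-identical copies were not given in these sources, so counts of overlapping genes or copies may be mixed. The authors deposited whole-number read counts per gene, not normalized, and FPKM values for the same genes.

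The members and lists were chosen with earlier results of these data known. CPM was computed by column total for the choice and for all levels given. Tests used edgeR 4.0.16 (quasi-likelihood F test, robust, TMM factors, filterByExpr, no replicate block) on the deposited counts of all features in R 4.3.3, with Benjamini-Hochberg adjustment, and each accession or set had its own fit. For the whole-table tests of changes, JI64 libraries at D2 to D4 and JI261 libraries at D3 to D5 of both tissues entered together. The standard error of a fold change was derived from the fold change and its F statistic. Alternatives were RLE factors, library totals, no filter, a replicate block, DESeq2 1.42.0, limma 3.58.1 with FPKM on a log2 scale after adding 1 or 0.1, and leaving out each library. Genes were named by rule, as the 10 highest ranked, the 2 on either side of the edge, the 5 with the smallest p and up to 3 opposite ones in JI64 and JI261, the 3 highest in FPKM, the widest between accessions, and neighbours within 400 identifier numbers. The 2017 difference between JI92 and JI64, the library-total scaling and the split of the JI64 D1 seed coats were added after the data were seen. In a check on simulated data with the JI64 design, false calls were few, but many true changes were not called. A gene that did not pass is therefore not shown to be unchanged. Of all rows, 10 repeated an identifier, none of them among the 80 genes. Replicate numbers did not pair libraries, since correlations of the deviations between groups ran from -0.02 to 0.06. The replicate pairs of the tested groups differed by more than sampling noise.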

Additional observations from a re-analysis of the deposited data

Results flagged for a closer look

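The same contrast between stages differed between tissues or accessions in the following results, each by a test of the difference itself in edgeR. In JI64 the D2-to-D4 change was higher in seed coat than in embryo for 66 of the 80 genes and lower for 4. Of all features 21.5% were higher and 18.6% lower. In JI261 the D3-to-D5 change was higher in the seed coat for 58, and for 15.8% of all features. In the 2017 seed coats the D2-to-D4 change was higher in JI92 than in JI64 for 11 genes and lower for 44. There 18% of all features were higher and 20.2% lower. Against the direction of the choice, the JI64 difference was -3.53 on the log2 scale for Psat6g166160, -3.11 for Psat0s4503g0040 and -1.51 for Psat1g208960.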

How the results depend on the processing

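Of 213 recomputed counts of genes past the threshold or kept in the set, 195 stayed within 1.5 times the value given. With library totals in place of TMM factors, genes lower in JI64 seed coats than embryos at D2 came to 31, genes higher at D2 than at D1 in the JI64 embryo to 8, and genes higher at D5 than at D2 in the JI64 seed coat to 4. This scaling moved the median of all features most in the JI261 difference, to 1.58. With limma the D5 excess of the JI261 seed coat counted 59 and 60 genes on log2(FPKM + 1) and log2(FPKM + 0.1), the JI64 seed coat rise to D5 counted 1 and 5, and the JI64 embryo rise from D1 counted 8 on log2(FPKM + 0.1). Single libraries as replicates gave 10 genes in seed coats and 5 in embryos between domesticated and wild peas, 8 and 3 with the replicate block as well, and DESeq2 gave 1 in the embryo. The cause was not tested. Counts over all features moved by over 1.5 times in several comparisons. With library totals, limma on log2(FPKM + 1) and limma on log2(FPKM + 0.1), they came to 10842, 13563 and 13113 higher in the JI261 difference (4330 in edgeR), 8040, 9229 and 9306 higher in JI261 seed coats at D5 than D3 (4788), 9846, 11342 and 11521 lower in JI261 embryos at D5 than D3 (5719), 11131, 11772 and 12029 higher in JI261 seed coats than embryos at D5 (7140), and 1171, 848 and 1311 higher in JI64 seed coats at D5 than D2 (6059). The last was 4000 and 4029 without either D2 library. With library totals 3024 were lower in JI64 seed coats than embryos at D2 (6039), and 3334 higher in the JI64 embryo at D2 than D1 (5024), which was 3291 without D2 replicate 2. The 2017 difference had 9845 with limma on log2(FPKM + 1) (6500). Between domesticated and wild peas DESeq2 called 603 features in seed coats and 923 in embryos, single libraries 3543 and 2289, and these with the replicate block 3192 and 2017, where edgeR called 0 (8 in seed coats with no filter). Psat0s4503g0040 reversed in the JI261 difference, to 1.23 and 2.36 under limma on log2(FPKM + 1) and log2(FPKM + 0.1).

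Leaving out each library in turn gave ranges of 63 to 65 genes for the JI64 difference, 48 to 62 for the JI261 difference, 7 to 11 for the JI64 embryo from D1 to D2, and 22 to 39 for the JI64 seed coat from D2 to D5. The numbers of replicates only name the libraries, and with the replicate block the JI64 difference counted 66 genes and the JI261 difference 57. The set itself depended on the accessions averaged. Of the 80 genes, 45 were kept without Cameor, 46 without JI1794, 51 without PI358617, 49 with TMM-scaled CPM, and 66 to 69 without a replicate.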

Other observations

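Psat5g205000 and Psat7g111280, named after their values were seen, had 0 counts in every JI261 seed coat library at D3 and at D5, which allows up to 0.0226 CPM at D3 and 0.0236 CPM at D5. JI261 embryos had 62 and 697 counts of them over both libraries at D3, and 67 and 188 at D5.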
